A study of Mus musculus with 6 samples.

Results

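Lysosomal digestion was followed here through 38 genes of the 24940 in the deposited expression table. The genes were listed by name and matched by symbol, and each of the 38 was found. They comprised 24 acid hydrolases, 5 activators and other soluble proteins of the lysosome or its content, and 9 proteins of the lysosomal membrane. Cathepsins and the subunits of the vacuolar proton pump were not part of the list. The list did not depend on any measured value, but it was drawn up with earlier results from these data known.

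The RNA came from mouse bone marrow-derived macrophages (BMMs), which are osteoclast precursors, in 6 libraries of 3 conditions with 2 libraries each. All cells were given M-CSF, the growth factor that macrophages need, at 30 ng/mL. The No RANKL cells were given nothing more, the RANKL cells were also given the osteoclast-inducing cytokine RANKL at 100 ng/mL, and the RANKL + LEA cells were given the same RANKL with 10 µg/mL of LEA, the ethyl acetate fraction of a water extract of the shiitake mushroom *Lentinula edodes*. The sample labels give C57BL/6 mice of 6 to 8 weeks, TRIzol and a standard Illumina protocol, whereas the methods name the SMARTer Stranded library kit, RNeasy columns and male mice of the ICR stock. The time of RNA harvest, a solvent control for LEA and the origin of the 2 libraries of a condition (separate cultures or mice) are not stated in the sources used here, so all p-values are set against the spread between like libraries, which may be no more than technical.

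Lysosomes are acidic organelles in which hydrolases break down the lipids, sugar chains and proteins that a cell takes up or discards. Most of the soluble enzymes are made in the endoplasmic reticulum, receive a mannose 6-phosphate tag in the Golgi and are carried to the lysosome by receptors for that tag. Heavily glycosylated membrane proteins line the organelle, and transporters in the membrane export the products. In macrophages this system degrades engulfed material. In osteoclasts, lysosomes also fuse with the cell membrane that faces bone, where they deliver hydrolases and acid to the resorption space.

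The libraries held 46382335 to 49589539 reads, read from the smallest step of the deposited values, with 36610549 to 40026197 reads on genes. Values are FPKM, fragments scaled to exon length and to the mapped reads of the library, so that genes can be compared. A member of the list had between 738 reads (*Idua*) and 157041 reads in a library. All 38 passed the filter of 0.5 FPKM in at least 2 libraries that left 11905 genes for testing. Summed over 7 macrophage markers, FPKM ranged from 1368 to 1420 in the No RANKL libraries, from 595 to 628 with RANKL and from 704 to 749.6 with RANKL + LEA. Summed over 8 osteoclast markers the ranges were 25.7 to 27.5, 4805 to 5623 and 2392 to 2523 FPKM, so the label of macrophages held in the No RANKL libraries. Markers of other cell types were low, at most 8.35 FPKM summed over 7 osteoblast and stroma genes (*Bglap* at 0), at most 3.9 over 6 neutrophil genes (*Ly6g* at 0), at most 0.138 over 5 T and NK cell genes, at most 1.39 over 4 dendritic cell genes and at most 3.75 over 4 endothelial genes (*Tek* at 0). Within conditions the 2 libraries were not level for the 38 genes. The first RANKL library was above the second for 38 of the 38 genes (median difference 0.22 on the log2 scale, against 0.13 over all genes tested), the first RANKL + LEA library was above the second for 29, and the first No RANKL library was above the second for 3. Over all genes tested the first library was the higher for 75.2%, 62.3% and 33.1% in the same order, so the imbalance was not confined to the list.

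The 38 genes spanned a wide range of levels. *Psap*, which encodes prosaposin, the precursor of the saposins that present sphingolipids to their hydrolases, had the highest mean, at 1144 and 1275 FPKM in the No RANKL libraries, 751 and 603 with RANKL and 782 and 739.7 with RANKL + LEA. *Cst3*, which encodes the secreted cathepsin inhibitor cystatin C, was at 454 and 592 FPKM without RANKL, 717 and 583 after RANKL and 589 and 483 after RANKL + LEA. *Cd68*, a glycoprotein of late endosomes much used to stain macrophages, was at 515 and 568, 616 and 583, and 469 and 479 FPKM in the same order. The *Psap* libraries with RANKL lay well below those without it, those of *Cst3* overlapped, and those of *Cd68* lay slightly above. *Grn*, which encodes progranulin, a secreted protein that is cut into granulins in the lysosome, was at 587 and 637 FPKM without RANKL, 416 and 364 under RANKL and 455 and 421 once LEA was added. These 4 genes made up 47.3% to 51.5% of the summed FPKM of the 38 in every library. At the other end, *Idua*, the α-L-iduronidase of glycosaminoglycan breakdown, was at 4.73 and 5.00, 4.60 and 3.61, and 4.16 and 4.61 FPKM, and *Sgsh*, the sulfamidase of heparan sulfate breakdown, was at 9.51 and 9.83, 8.71 and 8.39, and 5.62 and 6.95 FPKM. Both *Idua* libraries without RANKL lay slightly above the other 4, and both *Sgsh* libraries with LEA lay below the other 4.

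**Figure D1:**
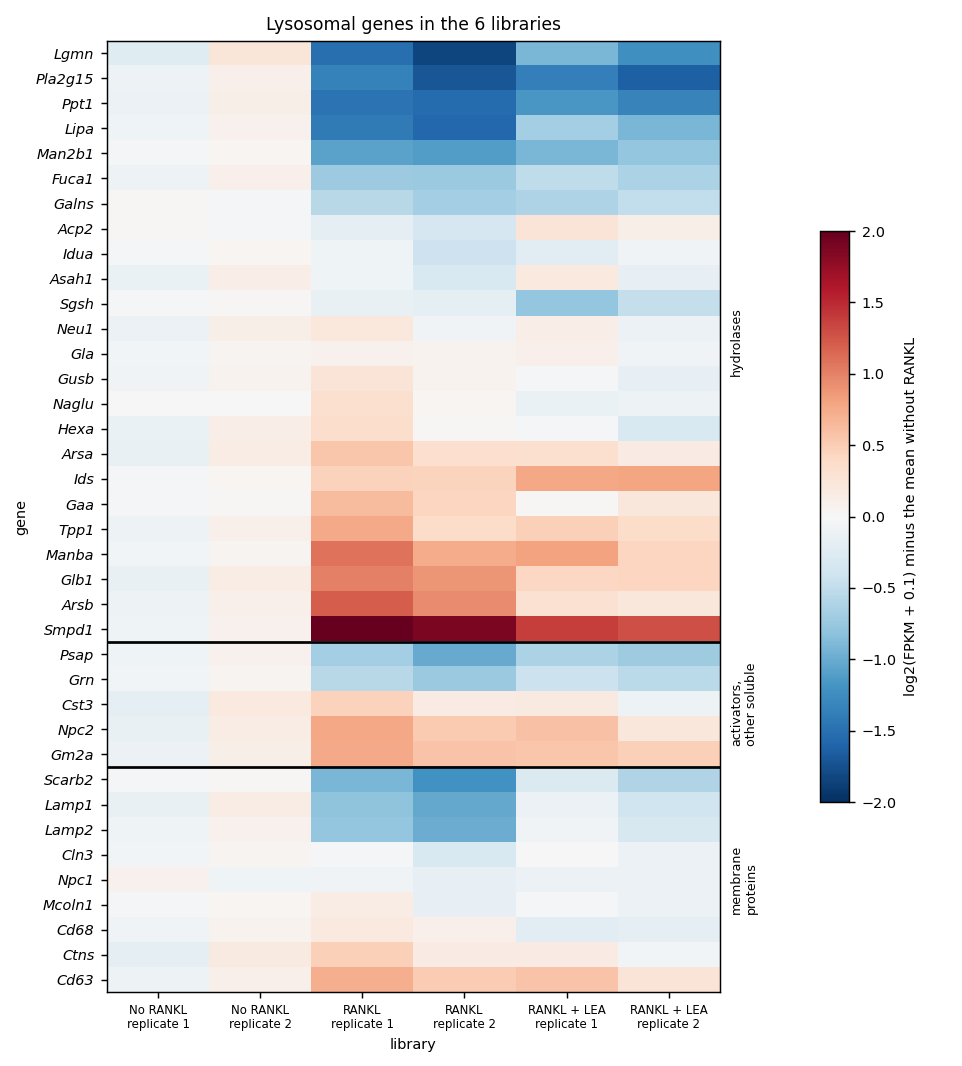
Level of the 38 genes in the 6 libraries, as log2(FPKM + 0.1) minus the mean of the 2 No RANKL libraries (color scale from −2 to 2), with hydrolases, other soluble proteins and membrane proteins in blocks and each block ordered by the change with RANKL. *Lgmn*, *Pla2g15*, *Ppt1* and *Lipa* are lowest and *Smpd1* is highest in the RANKL libraries, and *Lamp1* and *Lamp2* are paler with LEA than with RANKL alone.

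Many lysosomal genes are known to carry E-boxes with the core CACGTG near their start, which the MITF and TFE transcription factors bind. RefSeq promoters (250 bases before to 50 after a start site, build GRCm38.p6) were found for 35 of the 38 genes, in 39 windows. The core CACGTG, which reads the same on both strands, was in 10 of the 39 windows (25.6%), against 7.15% of all 32851 RefSeq promoters, and the longer TCACGTGA, which contains it, was in 3 (7.69%) against 0.974%. Among the 33 genes with a window within 100 bases of the start of the transcript that was counted, 8 held the core: *Arsa*, *Gaa*, *Gla*, *Glb1*, *Lamp1*, *Mcoln1*, *Naglu* and *Sgsh*. Shown here are *Lamp1*, with the most copies, *Mcoln1*, whose level was steady, and *Glb1* and *Smpd1*, which were both higher with RANKL and of which only *Glb1* has the core in this window. Capitals mark CACGTG or TCACGTGA, and the start site follows base 250.
Lamp1, chr8:13158911-13159210 (+ strand): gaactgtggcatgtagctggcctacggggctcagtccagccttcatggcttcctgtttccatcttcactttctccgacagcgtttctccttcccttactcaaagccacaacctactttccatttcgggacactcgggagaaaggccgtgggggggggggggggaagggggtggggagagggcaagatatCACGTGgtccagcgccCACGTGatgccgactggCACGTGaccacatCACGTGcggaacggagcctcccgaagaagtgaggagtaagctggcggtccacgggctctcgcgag
Mcoln1, chr8:3500269-3500568 (+ strand): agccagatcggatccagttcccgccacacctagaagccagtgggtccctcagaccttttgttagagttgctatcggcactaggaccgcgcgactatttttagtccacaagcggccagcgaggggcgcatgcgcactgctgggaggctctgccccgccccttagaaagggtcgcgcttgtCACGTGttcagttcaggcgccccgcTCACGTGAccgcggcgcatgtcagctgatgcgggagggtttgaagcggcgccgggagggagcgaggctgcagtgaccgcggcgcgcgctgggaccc
Glb1, chr9:114400828-114401127 (+ strand): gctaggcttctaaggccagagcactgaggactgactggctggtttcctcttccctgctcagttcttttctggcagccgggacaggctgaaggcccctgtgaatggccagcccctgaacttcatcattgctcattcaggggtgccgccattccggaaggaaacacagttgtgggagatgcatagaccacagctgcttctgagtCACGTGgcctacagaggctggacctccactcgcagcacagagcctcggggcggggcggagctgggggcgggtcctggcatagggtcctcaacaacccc
Smpd1, chr7:105554110-105554409 (+ strand): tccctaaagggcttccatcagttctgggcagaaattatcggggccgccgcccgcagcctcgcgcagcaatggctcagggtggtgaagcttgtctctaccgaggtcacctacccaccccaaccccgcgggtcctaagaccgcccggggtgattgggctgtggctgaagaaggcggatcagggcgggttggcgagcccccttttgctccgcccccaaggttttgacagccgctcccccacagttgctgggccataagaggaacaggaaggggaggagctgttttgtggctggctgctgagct

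In the *Lamp1* window the 4 cores began 61, 45, 28 and 15 bases before the start, in *Mcoln1* the 2 cores began 71 and 45 bases before it, and in *Glb1* the core began 48 bases before it. The *Smpd1* window does not contain these letters, which says nothing of sites elsewhere. A match to the letters is a description of the sequence and not evidence of binding. By the limits given below, 2 of the 8 genes with the core and 14 of the 25 without it were called with RANKL. With LEA these counts were 1 and 5. The shares of all genes tested were 17.8% higher and 17.8% lower with RANKL, and 4.54% and 1.77% with LEA. A link between the core and a change was not tested. Of the factors themselves, *Tfec* rose with RANKL, from 4.98 and 5.36 to 20.6 and 15.9 FPKM (log2 fold change 1.79, limma adjusted p = 7.08e-05), and *Tfe3* fell, from 39.5 and 38.9 to 25.3 and 21.2 FPKM (log2 fold change −0.75, limma adjusted p = 0.00147). *Mitf* and *Tfeb* were not called, with log2 fold changes of 0.34 (95% interval −0.01 to 0.70) and −0.24 (−0.52 to 0.04). With LEA added, limma and voom called 0 of the 4 factors, and 0 had an unadjusted p under 0.05.

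To determine how RANKL altered lysosomal genes, the RANKL libraries were compared with the No RANKL libraries. A gene was called at a limma adjusted p under 0.05 (Benjamini-Hochberg over all 11905 genes) and a change of at least 1.5-fold, on the scale of log2(FPKM + 0.1). Of the 38 genes, 7 rose, 12 fell and 19 were not called, beside 17.8% of all genes tested called higher and another 17.8% called lower, so that the share of the list called higher was near that of all genes. Among the 24 hydrolases, 4 rose and 7 fell (median log2 fold change 0.07), among the 5 other soluble proteins 2 rose and 2 fell (median 0.32), and among the 9 membrane proteins 1 rose and 3 fell (median −0.12), where the median over all genes was 0.0006. Beside these counts, 7 of 7 macrophage markers fell and 8 of 8 osteoclast markers rose, and their part in the result was not tested. In bulk RNA, fewer cells of a type and less RNA per cell cannot be told apart. Values of all RANKL libraries lay above both No RANKL libraries for 14 of the 38 genes and below both for 15, against 37.9% and 37.1% of all genes tested.

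The hydrolase with the largest rise was *Smpd1*, the acid sphingomyelinase that cleaves sphingomyelin to ceramide. It was at 8.83 and 9.96 FPKM in the No RANKL libraries and 40.4 and 34.98 in the RANKL libraries, a 3.98-fold difference (log2 1.99, standard error 0.12, limma adjusted p = 6.69e-06). *Glb1*, the β-galactosidase that removes galactose from gangliosides and keratan sulfate, went from 12.7 and 15.5 to 28.4 and 26.00 FPKM (log2 0.95, standard error 0.13, limma adjusted p = 0.000469). *Gm2a*, the activator that lifts ganglioside GM2 out of membranes for hexosaminidase A, went from 31.1 and 36.2 to 57.01 and 49.98 FPKM (log2 0.67, limma adjusted p = 0.0022). In these 3 genes of sphingolipid breakdown each RANKL library was above each No RANKL library. *Psap*, the fourth called gene of that route and the most abundant, fell instead (log2 −0.84, standard error 0.13, limma adjusted p = 0.00118). Hence 3 of the 8 sphingolipid genes rose, 1 fell and 4 were not called. The 4 were *Hexa*, the α-chain of hexosaminidase A, at 0.18 on the log2 scale, *Gla*, the α-galactosidase of globotriaosylceramide, at 0.08, *Asah1*, the acid ceramidase, at −0.19, and *Arsa*, the sulfatase of sulfatides, at 0.45 with an adjusted p of 0.0338 in limma but under 1.5-fold. *Glb1* was counted on a transcript that RefSeq lists as noncoding, and it shares 6.9% of its exon bases with *Tmppe* on the same strand.

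Of the 7 enzymes of glycosaminoglycan breakdown, 1 rose and 1 fell. *Arsb*, the sulfatase that acts on dermatan and chondroitin sulfate, rose from 50.4 and 57.95 FPKM to 125 and 104 (log2 1.08, standard error 0.13, limma adjusted p = 0.00024). *Galns*, the sulfatase of keratan sulfate and chondroitin 6-sulfate, fell from 21.3 and 20.503 to 14.2 and 13.02 FPKM (log2 −0.62, limma adjusted p = 0.00194). These sulfatases thus went opposite ways, with no overlap between the conditions for either. The enzymes of heparan sulfate were not called: *Naglu* was at 0.18 on the log2 scale (95% interval −0.09 to 0.45), *Sgsh* at −0.18 (−0.48 to 0.13) and *Idua* at −0.25 (−0.60 to 0.10). *Ids*, the iduronate sulfatase, was at 14.8 and 15.6 FPKM without RANKL and 21.05 and 20.8 with it, past the adjusted p (limma adjusted p = 0.00536) and under the fold limit (log2 0.46). *Gusb*, the β-glucuronidase, was at 0.16 (95% interval −0.10 to 0.42). Reads of both strands were counted, and 48.2% of the exon bases of *Arsb* are also exon of the transcript *Gm26527* on the opposite strand in GENCODE, so the reads of the pair cannot be told apart. For *Galns* the call ended without the second RANKL library (log2 −0.56, adjusted p = 0.0158 in limma, under 1.5-fold).

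Among the enzymes of glycoproteins and glycogen, *Manba*, the β-mannosidase, rose from 11.5 and 12.4 to 25.6 and 20.1 FPKM (log2 0.92, standard error 0.16, limma adjusted p = 0.00224). *Man2b1*, the α-mannosidase that works on the same sugar chains, fell from 125 and 133 to 61.5 and 59.7 FPKM (log2 −1.09, standard error 0.10, limma adjusted p = 6.52e-05). *Fuca1*, the α-L-fucosidase, fell from 42.8 and 49.6 to 27.9 and 27.4 FPKM (log2 −0.73, limma adjusted p = 0.000963). The mannosidases therefore moved against each other, in every RANKL library against every No RANKL library. *Gaa*, the glycogen-cleaving α-glucosidase, was at 0.53 with a limma adjusted p of 0.00658, short of 1.5-fold, and *Neu1*, the sialidase, was at 0.07 (95% interval −0.27 to 0.42).

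Of the 4 genes of neutral lipids, phospholipids and sterols 1 rose and 2 fell with RANKL, and of the 6 of proteins and phosphates 3 fell and 3 were not called. *Lgmn*, which encodes legumain, a protease that cuts after asparagine and matures cathepsins, was at 188 and 262 FPKM without RANKL and 77.7 and 62.02 with it (log2 −1.68, standard error 0.19, limma adjusted p = 0.000197). *Pla2g15*, the lysosomal phospholipase A2, was at 35.02 and 40.2 FPKM against 14.7 and 11.3 (log2 −1.53, standard error 0.16, limma adjusted p = 0.000122). *Ppt1*, the thioesterase that removes palmitate from proteins, was at 50.7 and 59.1 FPKM against 19.7 and 18.7 (log2 −1.51, standard error 0.12, limma adjusted p = 2.75e-05). In each of these the lowest No RANKL library was well above the highest RANKL library. *Lipa*, the acid lipase that frees cholesterol and fatty acids from lipoprotein lipids, fell from 442 and 494 FPKM to 176 and 158 (log2 −1.49, standard error 0.12, limma adjusted p = 3.57e-05). *Npc2*, the soluble protein that takes up the freed cholesterol, rose over the same libraries, from 155 and 190.0 to 295 and 246 FPKM (log2 0.65, limma adjusted p = 0.0114). *Npc1*, the membrane protein that receives cholesterol from it, was level, at 29.8 and 26.5 FPKM without RANKL, 26.7 and 25.05 after RANKL and 26.01 and 25.8 after RANKL + LEA (log2 −0.12 with RANKL, 95% interval −0.36 to 0.12). *Tpp1*, a tripeptidyl peptidase, was at 0.56 with a limma adjusted p of 0.0133 and below the fold limit. *Acp2*, the lysosomal acid phosphatase, was at −0.26 (95% interval −0.51 to −0.01). The progranulin gene *Grn* fell (log2 −0.65, limma adjusted p = 0.00193), a call that ended without the second RANKL library (log2 −0.56), and *Cst3* was not called (log2 0.32, 95% interval −0.08 to 0.71).

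Of the 9 membrane proteins, *Lamp1*, *Lamp2* and *Scarb2* fell, *Cd63* rose and 5 were not called, including *Cd68*, the most abundant of the 9 (log2 0.15, 95% interval −0.09 to 0.39). *Lamp1* was at 373 and 455 FPKM without RANKL and 237 and 203 with it (log2 −0.91, standard error 0.15, limma adjusted p = 0.00137). *Lamp2*, its close relative and a receptor in chaperone-mediated autophagy, was at 92.7 and 105 FPKM against 57.6 and 49.7 (log2 −0.88, standard error 0.13, limma adjusted p = 0.000812). *Scarb2*, which encodes LIMP-2, the carrier that brings β-glucocerebrosidase to the lysosome without a mannose 6-phosphate tag, was at 28.1 and 29.1 FPKM against 15.04 and 12.3 (log2 −1.06, standard error 0.14, limma adjusted p = 0.000536). For each of these 3 genes, both libraries with RANKL lay below both without it. *Cd63*, a tetraspanin of late endosomes and of secreted vesicles, rose instead, from 204 and 236 to 363 and 312 FPKM (log2 0.62, standard error 0.14, limma adjusted p = 0.00808). The calls of *Cd63*, *Gm2a* and *Npc2* were close to the limit, and each ended without the first No RANKL library (log2 0.51, 0.56 and 0.50) and without the first RANKL library (log2 0.51, 0.57 and 0.52).

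The transport proteins among the 9 membrane proteins of the list moved little. Some transporters outside the 38 changed far more and are given below. *Mcoln1*, the calcium channel TRPML1, was at 13.1 and 13.9 FPKM without RANKL, 14.9 and 12.03 under RANKL and 13.2 and 12.4 once LEA was added. *Ctns*, the cystine exporter, was at 7.14 and 9.29, 11.4 and 9.11, and 9.16 and 7.84 FPKM in that order. *Cln3*, a membrane protein mutated in juvenile Batten disease in humans, was at 20.9 and 22.8, 21.5 and 17.6, and 21.7 and 19.99 FPKM. For all 3 the conditions overlapped. Of the exon bases of *Cln3*, 13.2% are exon of *Apobr* on the opposite strand in GENCODE, which was at 42.8 to 52.7 FPKM, and their reads cannot be told apart. With RANKL the 95% intervals of *Mcoln1*, *Cln3*, *Npc1* and *Cd68* lay within 1.5-fold of no change on either side, while that of *Ctns* (−0.08 to 0.71) did not. Over the whole list, 12 of the 19 genes that were not called had such an interval.

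**Figure D2:**
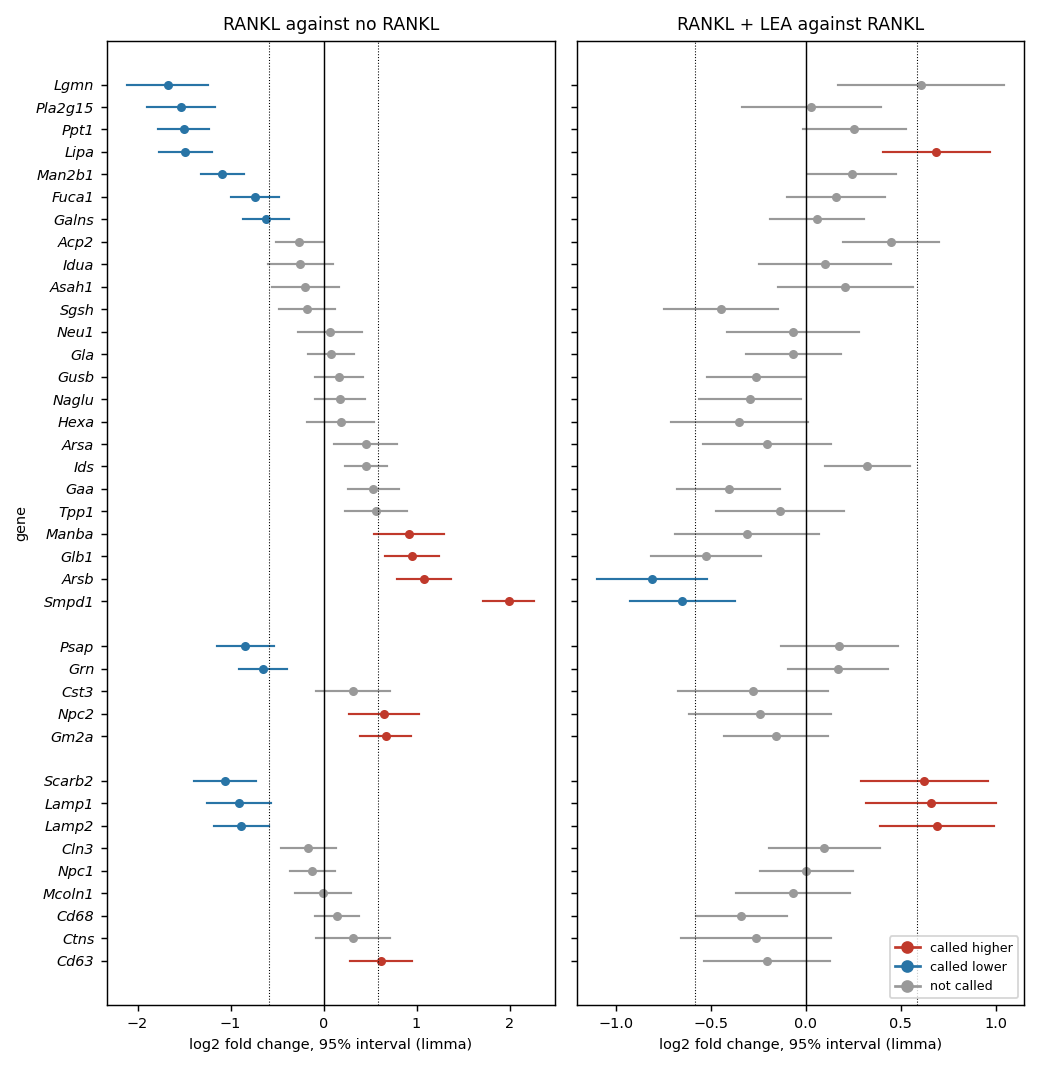
Log2 fold change (points) and 95% interval (bars) of the 38 genes in limma, for RANKL against No RANKL (left) and RANKL + LEA against RANKL (right, on a narrower axis), with dotted lines at 1.5-fold and red or blue for genes called higher or lower. On the left 7 genes are red and 12 are blue, and on the right 4 are red and 2 are blue.

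To determine which lysosomal genes LEA altered in the presence of RANKL, the RANKL + LEA libraries were compared with the RANKL libraries. LEA raised *Lamp1*, *Lamp2*, *Scarb2* and *Lipa*, all of which RANKL had lowered, and reduced *Arsb* and *Smpd1*, which RANKL had raised. The comparisons share the RANKL libraries, so an opposite sign is not independent evidence. In all, 4 of the 38 genes were called higher, beside 4.54% of all genes tested, 2 were called lower, beside 1.77%, and 32 were not called. Among hydrolases 1 rose and 2 fell (median log2 fold change −0.07), among the other soluble proteins limma and voom called 0 of 5, with 0 at an unadjusted p under 0.05 (median −0.16), and among membrane proteins 3 rose and 0 fell (median 0.003), with 4 of 9 at an unadjusted p under 0.05. The median over all genes tested was 0.05. Beside these counts 8 of 8 osteoclast markers fell and 3 of 7 macrophage markers rose with LEA. The summed neutrophil markers were at 0.406 to 0.602 FPKM with RANKL, 1.13 to 1.73 with RANKL + LEA and 3.19 to 3.90 without RANKL. Of these 6 neutrophil markers only *S100a8* had a mean of at least 1 FPKM. The part of all these markers in the result was not tested. Both RANKL + LEA libraries lay above both RANKL libraries for 11 of the 38 genes and below both for 11, against 30.1% and 20.6% of all genes tested.

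*Lamp1* (chr8:13159161-13175338 in mm10) was at 237 and 203 FPKM with RANKL and 382 and 314 with RANKL + LEA, against 373 and 455 without RANKL. The change with LEA was 1.58-fold (log2 0.66, 95% interval 0.32 to 1.001, limma adjusted p = 0.0351). *Lamp2* (chrX:38405049-38456460) was at 57.6 and 49.7 FPKM with RANKL and 93.7 and 79.4 with RANKL + LEA (log2 0.69, 95% interval 0.39 to 0.99, limma adjusted p = 0.0213). For both, the 2 LEA libraries were above the 2 RANKL libraries and near the No RANKL libraries, and the first LEA library lay within the No RANKL range. As 1 transcript per gene was counted, the splice forms of *Lamp2* were not resolved. *Scarb2* (chr5:92441311-92505657) was at 15.04 and 12.3 FPKM with RANKL and 23.5 and 18.9 with RANKL + LEA (log2 0.62, 95% interval 0.29 to 0.96, limma adjusted p = 0.0389), and its LEA libraries stayed below both No RANKL libraries (28.1 and 29.1 FPKM). *Lipa* (chr19:34492316-34527474) was at 176 and 158 FPKM with RANKL and 291 and 248 with RANKL + LEA (log2 0.69, 95% interval 0.41 to 0.97, limma adjusted p = 0.0177). Its LEA libraries lay between the other conditions, apart from both.

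*Arsb* (chr13:93771679-93943016) was at 125 and 104 FPKM with RANKL and 67.05 and 63.1 with RANKL + LEA, near the 50.4 and 57.95 FPKM of the No RANKL libraries. It fell 1.75-fold (log2 −0.81, 95% interval −1.10 to −0.52, limma adjusted p = 0.0111). *Smpd1* (chr7:105554360-105558389) was at 40.4 and 34.98 FPKM with RANKL and 24.7 and 23.1 with RANKL + LEA (log2 −0.65, 95% interval −0.93 to −0.37, limma adjusted p = 0.0198), and its LEA libraries remained above both No RANKL libraries (8.83 and 9.96 FPKM). These changes kept their direction in all 18 alternatives. That outcome was largely fixed, as the filter, fold limit and replicate block leave the fitted change as it is. The LEA and RANKL libraries of each gene also did not overlap, so leaving out 1 could not reverse it. The calls depended on single libraries and on the filter. Without the filter on low values limma called 0 of the 38 genes in either direction (adjusted p = 0.119 for *Lamp1* and 0.052 for *Arsb*). With the filter, 16 of the 38 had an unadjusted p under 0.05 in limma, and voom on recovered reads called 5 higher and 2 lower. For *Lamp1* and *Smpd1* the call ended on leaving out any 1 of the 4 RANKL and RANKL + LEA libraries. For *Lamp2*, *Lipa* and *Scarb2* it ended without either RANKL library or the first RANKL + LEA library, and for *Arsb* without the first RANKL library or either RANKL + LEA library. Over the alternatives the log2 fold change ran from 0.52 to 0.80 for *Lamp1*, 0.57 to 0.81 for *Lamp2*, 0.47 to 0.78 for *Scarb2*, 0.57 to 0.80 for *Lipa*, −0.94 to −0.68 for *Arsb* and −0.75 to −0.55 for *Smpd1*. For *Lamp1* the highest adjusted p over the alternatives was 0.212 in limma, without the second RANKL library. The call of *Scarb2* also ended under quantile and median ratio scaling (log2 0.58 and 0.57) and with the No RANKL libraries left out of the fit, and that of *Smpd1* when libraries were scaled by the median of the 38 genes (log2 −0.58), a setting chosen after the data had been seen.

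**Figure D3:**
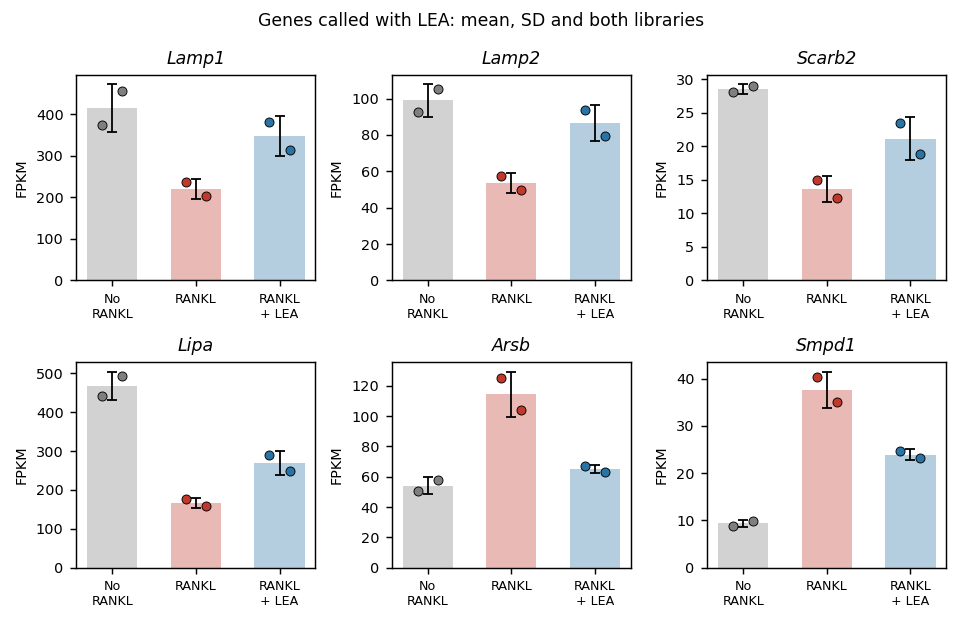
FPKM of the 6 genes called in RANKL + LEA against RANKL, with bars for the mean of 2 libraries starting at 0, whiskers for the SD and points for the libraries. In *Lamp1*, *Lamp2*, *Scarb2* and *Lipa* both LEA libraries are above both RANKL libraries, and in *Arsb* and *Smpd1* both are below.

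Other genes came near the limits. *Glb1* was at 28.4 and 26.00 FPKM with RANKL and 18.8 and 18.9 with RANKL + LEA, and *Acp2* at 24.6 and 22.3 FPKM against 33.8 and 30.3. Both passed the adjusted p (limma adjusted p = 0.0424 and 0.0442) and were under 1.5-fold (log2 −0.52 and 0.45). *Lgmn* was at 77.7 and 62.02 FPKM with RANKL and 118 and 95.1 with RANKL + LEA, past 1.5-fold (log2 0.61, standard error 0.19) but not the adjusted p (0.0911 in limma). It was called under 5 of the 18 alternatives, with voom on recovered reads among them. *Pla2g15* and *Ppt1*, which fell with RANKL about as much as *Lipa*, were not called with LEA (log2 0.03, 95% interval −0.33 to 0.40, and 0.26, −0.02 to 0.53). Of the 32 genes that were not called, 22 had a 95% interval within 1.5-fold of no change, and *Psap*, *Grn*, *Cd68*, *Cd63*, *Npc1*, *Mcoln1*, *Cln3*, *Gm2a* and *Galns* were among them. The intervals of the other 10, *Npc2* (−0.61 to 0.13) and *Hexa* (−0.71 to 0.01) included, reached past it. For *Acp2*, 13.3% of the exon bases are also exon of *Ddb2* in GENCODE.

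To see what LEA left in place, the RANKL + LEA libraries were set against the No RANKL libraries, which share the RANKL + LEA libraries with the comparison above. Of the 38 genes, 3 were called higher (15.5% of all genes tested) and 7 lower (11.8%), and 28 were not called. Limma and voom called 0 of the 9 membrane proteins here, and 2 had an unadjusted p under 0.05. For *Lamp1* the log2 difference from the No RANKL libraries was −0.25 (95% interval −0.59 to 0.09), for *Lamp2* −0.20 (−0.49 to 0.10), for *Scarb2* −0.44 (−0.77 to −0.11) and for *Cd63* 0.41 (0.08 to 0.74), so that only the interval of *Lamp2* among these 4 lay within 1.5-fold. The 10 called genes were 9 hydrolases and *Psap*. *Smpd1* (2.53-fold, log2 1.34, limma adjusted p = 9.16e-05) and *Manba* (log2 0.61, adjusted p = 0.0197 in limma) were higher. *Ids* was at 14.8 and 15.6 FPKM without RANKL, 21.05 and 20.8 after RANKL and 26.03 and 26.4 after RANKL + LEA, and was also called higher (log2 0.78, limma adjusted p = 0.000514), each condition lying above the one before. *Pla2g15* (log2 −1.50), *Ppt1* (−1.25), *Lgmn* (−1.07), *Man2b1* (−0.85), *Lipa* (−0.80), *Psap* (−0.67) and *Sgsh* (−0.62) were lower, with limma adjusted p from 0.00012 for *Ppt1* to 0.00678 for *Sgsh*. *Sgsh* was at 9.51 and 9.83 FPKM without RANKL, 8.71 and 8.39 under RANKL and 5.62 and 6.95 once LEA was added, and 21.9% of its exon bases are exon of *Card14* on the opposite strand, which was at 2.42 and 2.86, 6.32 and 6.36, and 2.81 and 3.00 FPKM. The calls of *Manba* and *Sgsh* ended in 7 and 4 of the alternatives. Without the first RANKL + LEA library, *Sgsh* was at −0.47 and *Manba* at 0.42, and without the first No RANKL library *Manba* was at 0.56.

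Across all comparisons, 17 of the 38 genes were called in none, among them the transport proteins *Npc1*, *Mcoln1*, *Ctns* and *Cln3*, and *Cd68*, *Hexa*, *Gusb*, *Gla*, *Neu1* and *Asah1*. Another 5 (*Man2b1*, *Ppt1*, *Lgmn*, *Pla2g15* and *Psap*) were lower with RANKL and with RANKL + LEA than without RANKL and were not called between these. *Glb1*, *Gm2a*, *Npc2* and *Cd63* were called higher only in RANKL against No RANKL, and *Galns*, *Fuca1* and *Grn* were called lower only there. This does not place them at the No RANKL level with LEA. In RANKL + LEA against No RANKL, *Glb1*, *Gm2a*, *Galns*, *Fuca1* and *Grn* passed the adjusted p in limma but not 1.5-fold (log2 0.42, 0.51, −0.56, −0.57 and −0.48). The same held for *Scarb2* and *Tpp1* (log2 −0.44 and 0.43). *Lamp1*, *Lamp2* and *Scarb2* were called lower with RANKL, higher with LEA added, and not called between RANKL + LEA and No RANKL.

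Ratios between genes within a library do not depend on how the library was scaled. The pairs were chosen after the values had been seen and are a description. The ratio of *Lamp1* to *Smpd1* FPKM was 42.3 and 45.7 in the No RANKL libraries, 5.86 and 5.80 with RANKL and 15.4 and 13.6 with RANKL + LEA. The ratio of *Lamp2* to *Arsb* was 1.84 and 1.82, then 0.461 and 0.478, then 1.40 and 1.26. In both pairs the LEA libraries lay between the other conditions. The ratio of *Lamp1* to *Lamp2* was steady, at 4.03 and 4.32, then 4.11 and 4.08, then 4.07 and 3.96, and so did not separate the conditions. *Lamp1* to *Cd63* went from 1.83 and 1.93 to 0.652 and 0.651 with RANKL and was 1.174 and 1.197 with RANKL + LEA. *Psap* to *Gm2a*, the activator precursor against the other activator, was at 36.8 and 35.2 without RANKL, 13.2 and 12.1 with RANKL, and 15.9 in both libraries with RANKL + LEA.

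For the classes as wholes, the summed FPKM of the hydrolases was 1.24 and 1.25 times that of the membrane proteins in the No RANKL libraries, 1.02 and 0.971 times with RANKL and 0.998 and 0.989 times with RANKL + LEA. A few genes set these sums. *Hexa*, *Lipa*, *Gusb* and *Lgmn* made up 51.6% to 63.7% of the hydrolase sum, and *Lamp1*, *Cd63* and *Cd68* made up 85.1% to 89.7% of the membrane sum. Without *Lipa* and *Lgmn* the ratio was 0.744 and 0.735 in the No RANKL libraries, 0.832 and 0.791 with RANKL, and 0.698 and 0.708 with RANKL + LEA, so that the order of the No RANKL and RANKL libraries turned round. Both genes are abundant and fell with RANKL, so leaving them out lowers the No RANKL ratio most by construction. *Lamp1*, *Lamp2* and *Scarb2*, which also fell, stayed in the membrane sum. No conclusion on the classes is therefore drawn from this turn.

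**Figure D4:**
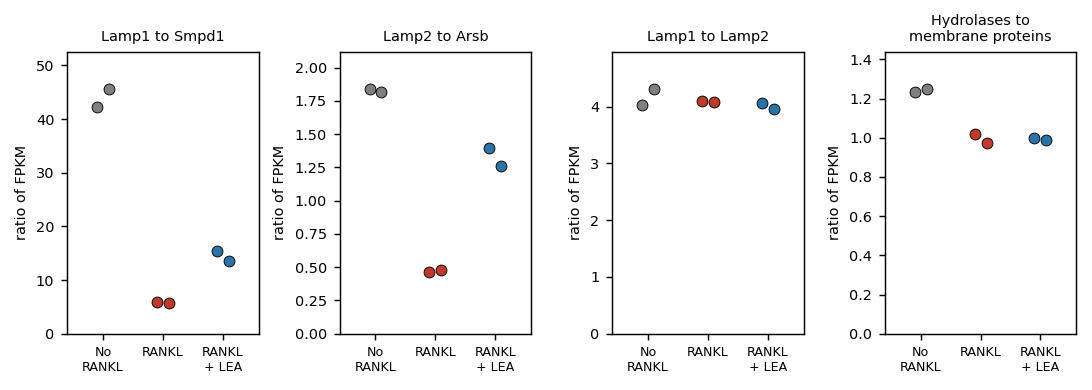
Ratios of FPKM within each library (1 point per library, y axes from 0) for *Lamp1* to *Smpd1*, *Lamp2* to *Arsb*, *Lamp1* to *Lamp2*, and the summed hydrolases to the summed membrane proteins. The first 2 ratios are lowest with RANKL and intermediate with LEA, while *Lamp1* to *Lamp2* stays between 3.96 and 4.32.

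Genes outside the 38 that serve the same organelle or are related to such genes were read from further lists. Their counts are to be read against the shares of all genes tested, 17.8% higher and 17.8% lower with RANKL and 4.54% and 1.77% with LEA. Among 26 genes of mannose 6-phosphate tagging and sorting, 4 rose and 4 fell with RANKL, in each direction a share no larger than that of all genes. *Igf2r*, the large mannose 6-phosphate receptor, was at 1.11 and 1.21 FPKM without RANKL, 52.5 and 51.02 after RANKL and 42.5 and 50.7 after RANKL + LEA (log2 5.36 with RANKL, standard error 0.12, limma adjusted p = 5.92e-08). *Gnptab*, a subunit of the enzyme that makes the tag, was at 17.3 and 16.3, 80.5 and 76.2, and 53.9 and 54.5 FPKM (log2 2.22 with RANKL, limma adjusted p = 1.31e-06). *M6pr*, the small receptor, was at 128 and 135, 244 and 225, and 242 and 228 FPKM (log2 0.83, limma adjusted p = 0.000275). All 3 were higher in every RANKL library than in any No RANKL library, as was the Golgi adaptor *Gga2* (log2 1.05). *Sort1*, which encodes sortilin, a sorting receptor that does not need the tag and carries prosaposin, was lower, at 7.56 and 8.78, 1.53 and 1.37, and 1.79 and 1.86 FPKM (log2 −2.42, limma adjusted p = 7.03e-06), as were the adaptor subunits *Ap1s2* (log2 −1.35) and *Ap1b1* (−1.12). With LEA, limma and voom called 0 of the 26, and 4 had an unadjusted p under 0.05. The largest fall was that of *Gnptab* (log2 −0.53, limma adjusted p = 0.0186, under 1.5-fold). The largest rise in the list was log2 0.57, also under 1.5-fold. *Ap1s2* was at 10.9 and 10.04 FPKM with RANKL and 15.4 and 15.8 with RANKL + LEA.

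**Figure D5:**
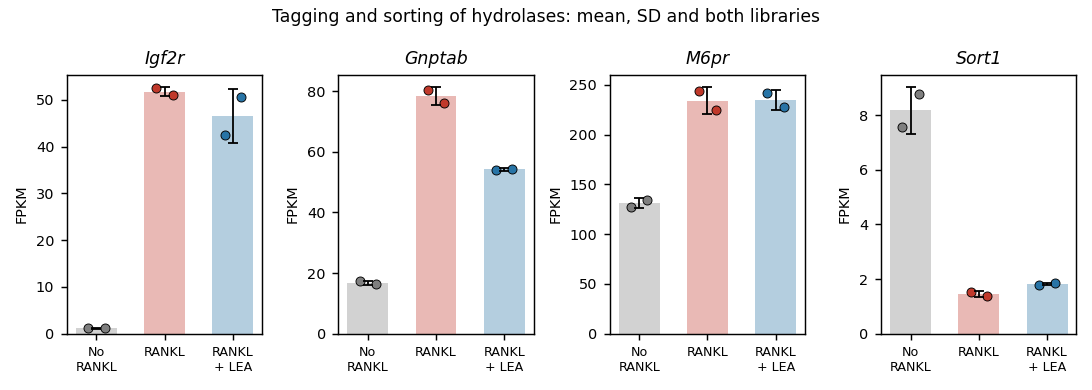
FPKM of 4 genes of hydrolase tagging and sorting, with bars for the mean of 2 libraries starting at 0, whiskers for the SD and points for the libraries. *Igf2r*, *Gnptab* and *M6pr* are higher and *Sort1* is lower in both RANKL conditions than without RANKL, and *Gnptab* is lower with LEA than with RANKL alone by less than 1.5-fold.

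Of 36 other hydrolases and related proteins, not all of them lysosomal, 6 rose and 12 fell with RANKL. *Ifi30*, the thiol reductase of antigen processing, went from 72.3 and 93.2 to 542 and 452 FPKM and *Hyal1*, a hyaluronidase, from 1.95 and 1.88 to 12.4 and 8.81 FPKM (log2 2.59 and 2.39), and *Naaa*, which hydrolyzes acylethanolamides, also rose (log2 1.33). *Smpdl3b*, a relative of *Smpd1*, fell from 13.5 and 14.9 to 1.66 and 1.37 FPKM (log2 −3.15), opposite to *Smpd1*, and *Lyz2*, the macrophage lysozyme (log2 −1.77), and *Creg1* (log2 −1.55) fell too. With LEA 5 of the 36 rose and 1 fell. *Pla2g7*, a secreted phospholipase, was at 51.1 and 48.9 FPKM with RANKL and 151 and 127 with RANKL + LEA, and *Hyal1* fell to 5.79 and 5.83 FPKM (log2 1.47 and −0.83, limma adjusted p = 0.00118 and 0.0261).

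Of 39 other genes tested from a list of lysosomal and related membrane proteins, 3 rose and 15 fell with RANKL. With LEA 6 rose and 0 fell, with 15 at an unadjusted p under 0.05 in either direction and 0 lower in voom. The list was not limited to proteins that reside mainly in the lysosome. Its largest fall was *Slc40a1*, at 80.5 and 90.2 FPKM without RANKL, 1.41 and 1.44 under RANKL and 3.00 and 2.20 with RANKL + LEA (log2 −5.81 with RANKL). *Slc11a1*, the metal exporter of phagosomes, was at 159 and 157 FPKM without RANKL, 23.7 and 24.8 under RANKL and 65.7 and 73.2 once LEA was added (log2 −2.70 with RANKL and 1.51 with LEA). *Slc15a3*, a peptide and histidine transporter, was at 60.4 and 55.1, 6.28 and 6.77, and 11.7 and 12.3 FPKM (log2 −3.13 and 0.87). The tetraspanin *Cd82* rose with RANKL as *Cd63* did, from 8.07 and 9.20 to 55.2 and 47.8 FPKM (log2 2.56). Another tetraspanin of that list, *Cd81*, went the other way and was called lower with RANKL and higher with LEA. *Mcoln2*, a relative of *Mcoln1*, was at 1.51 and 1.60 FPKM with RANKL and 3.45 and 2.61 with RANKL + LEA (log2 0.90, limma adjusted p = 0.022), where *Mcoln1* was not called. Of 19 genes of lysosome fusion and positioning, 3 rose with RANKL (*Vps39*, *Vti1b* and *Arl8b*, log2 0.82 to 1.04) and 1 fell (*Vps16*, −0.90). With LEA limma and voom called 0 of these 19, and 5 had an unadjusted p under 0.05. Of 18 genes of nutrient sensing at the lysosome, 1 rose and 1 fell with RANKL, and with LEA limma called 0, voom called 1 lower and 1 had an unadjusted p under 0.05.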

How the data were processed

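The authors aligned reads to the mouse genome (mm10) with HISAT2, counted exon reads of both strands for 1 transcript per gene with HOMER and deposited FPKM, without counts. The sources used here do not give their versions. Deposited FPKM are relative to library size and exon length. Whole reads were recovered from the FPKM steps (100% of low values within 0.1 read of a whole number). The authors' lists of changed genes, kept as symbols beside the table, were not used. Protein features were not analysed here, and a further marker list is not reported here.

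The 11905 genes that reached 0.5 FPKM in 2 or more libraries were fitted together with limma 3.58.1 in R 4.3.3 on log2(FPKM + 0.1), with all 6 libraries, a mean-variance trend and 3 residual degrees of freedom. Adjustment over all genes tested followed Benjamini and Hochberg. Sequences, motifs and figures were handled with Python 3.11.15, numpy 2.4.6, pandas 2.3.3 and matplotlib 3.10.9. The 38 genes and all lists were chosen with earlier results of these data known, and some results of these data had been seen when tests were set. Values are given per library for genes called with LEA, up to 6 per direction with the largest called change with RANKL, the 4 highest and 2 lowest, and the membrane proteins, and up to 3 called genes per direction at 2 FPKM or more are named from the other lists. Genes named beyond these were chosen after their values were seen. Alternatives were the pseudocount, filter, scaling, fold limit, replicate block, voom on recovered reads, and leaving out each library. Replicate numbers do not state a pairing.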

Additional observations from a re-analysis of the deposited data

How the results depend on the processing

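All fitted log2 fold changes of the genes called kept their direction under the 18 alternatives tried. The filter, fold limit and replicate block leave these changes as they are, so these settings could not reverse a direction. For every gene called, the libraries of the conditions compared did not overlap. Leaving out a library or changing the pseudocount therefore could not reverse a direction either, and the outcome was largely fixed. Without the filter on low values, more genes entered both the shared fit of the spread and the adjustment. Of the 38 genes, 0 were then called higher and 0 lower in RANKL + LEA against RANKL, instead of 4 and 2. Scaling by the median of the 38 genes, added after the data had been seen, left 1 called lower there. A limit of 2-fold left 2 higher and 6 lower with RANKL, 0 and 0 with LEA, and 1 higher and 3 lower in RANKL + LEA against No RANKL. With no fold limit 11 were higher with RANKL, and 6 higher and 11 lower in RANKL + LEA against No RANKL. Leaving out each library in turn, 4 to 9 genes were higher and 10 to 12 lower with RANKL, 0 to 5 higher and 0 to 2 lower with LEA, and 2 to 4 higher and 7 to 8 lower in RANKL + LEA against No RANKL, and the hydrolases' median log2 fold change with LEA ran from −0.183 to 0.0667. Over all genes, the calls with LEA were 540 higher and 211 lower, 210 and 81 without the filter, 195 and 53 at 2-fold, 439 and 328 after quantile normalization, and from 113 to 307 higher and 16 to 86 lower on leaving out a RANKL or RANKL + LEA library. Quantile normalization thus moved the share of higher calls from 71.9% to 57.2%. In fits with a replicate block, the same genes of the 38 were called (7 and 12, 4 and 2, 3 and 7). The numbers were not taken as pairs, as the deviations of like-numbered libraries correlated at −0.079 (No RANKL and RANKL), −0.255 (No RANKL and RANKL + LEA) and 0.123 (RANKL and RANKL + LEA) over all genes tested, and at −0.358, −0.554 and 0.444 over the 38. With 2 libraries a condition, and replicates that may be technical, genes not called may still differ.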
